A study of Rattus norvegicus with 6 samples.

Results

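The aldo-keto reductases other than aldose reductase were examined in kidneys of Dahl salt-sensitive rats (labelled Dahl(S), written Dahl S here) and Lewis rats. The members were the probe sets whose gene symbol in the platform annotation starts with Akr and a digit, without Akr1b1, the gene of aldose reductase. There were 18 such probe sets for 14 genes, among 31099 probe sets in all for 14217 named genes. The 10 described in full were selected on their mean deposited signal over the 6 arrays, which did not use the difference between strains and was not tested. The last probe set inside had a mean deposited signal of 37.4 (the dimmer of the Akr1b10 pair) and the first outside had 31.7 (an Akr1d1 probe set). The study compared 3 male Dahl S with 3 male Lewis rats. Every rat of both strains ate food with 8% NaCl for 8 weeks from an age of 5 weeks, and kidney RNA of each rat was hybridized to its own array. No rats on a low-salt diet were analysed here, so what the strains inherit and how they respond to salt cannot be told apart. In kidney RNA, fewer cells of a type and less RNA per cell cannot be told apart either.

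Aldo-keto reductases are soluble enzymes that use NADPH to reduce aldehydes and ketones to alcohols. Their substrates include aldehydes from lipid peroxidation, sugars, steroids, prostaglandins and foreign chemicals. The kidney, above all its proximal tubule, is rich in several of them. The members fall into an aldehyde reductase (Akr1a1), aldose reductase-like enzymes (Akr1b7, Akr1b8, Akr1b10), a large group of steroid and carbonyl reductases (Akr1c), a steroid double-bond reductase (Akr1d1), an anhydrofructose reductase (Akr1e2) and aflatoxin aldehyde reductases (Akr7a2, Akr7a3).

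The aldo-keto reductases of the salt-fed Dahl S kidney were lower than, or not shown to differ from, those of the Lewis kidney wherever the signal was bright enough to test. Of 9 tested probe sets, each of a different gene, 5 were lower in Dahl S (Akr7a3, Akr7a2, Akr1c1, Akr1c19 and Akr1b8), 0 were higher and 4 did not pass an adjusted p of 0.05 (limma; at an unadjusted p under 0.05, 6 were lower and 0 higher). Of all 15800 tested probe sets, 16.2% were called, with 7.73% lower and 8.51% higher in Dahl S. The median log2 difference was -0.32 over the 9 members and 0.00 over all tested probe sets. The declines were small, between 1.22-fold and 1.37-fold. Strain ranges of normalized signal did not overlap for 7 of the 9, where 34.5% of all tested probe sets had ranges that did not overlap. A value was tested where its normalized signal exceeded the median of all probe sets, 61.6, on at least 3 arrays. Normalized signals are in array units after quantile normalization, which gives every array the same distribution, and differences are on the log2(signal + 16) scale. Signals of different probe sets do not compare the RNA amounts of different genes.

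The arrays were not brought to a common brightness before deposit. The mean signal of an array, trimmed by 2% at each end, lay between 118 and 229 in Lewis and between 205 and 250 in Dahl S. Left unnormalized, the deposited signals gave a median log2 difference of 0.41 over the tested probe sets, toward Dahl S, and 0 members were called (limma; also 0 at an unadjusted p under 0.05). Their differences then ran from -0.07 to 0.40. Relative to that shift they ran from -0.47 for Akr1b8 to -0.01 for Akr1e2, all 9 on the lower side. A median leaves as many tested probe sets below it as above it. Akr1c13 (-0.02) and Akr1e2 hardly differed from the shift, against SEs of 0.31 and 0.34 without normalization. Over the 9 members these SEs ran from 0.27 to 0.34. Kidney markers were present, with all 16 proximal tubule markers that had a probe set bright enough to test.

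**Figure D1:**
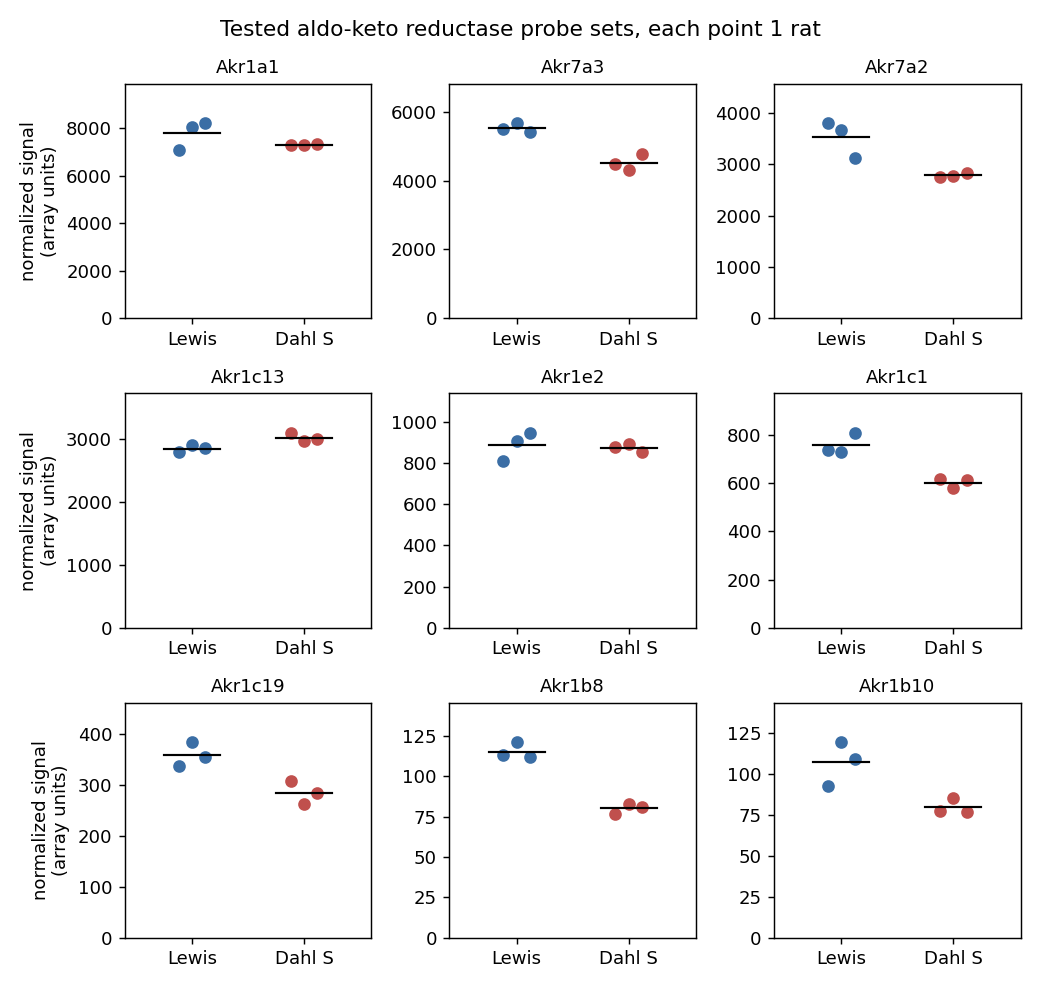
Normalized signal (array units, vertical axis from 0) of the 9 tested probe sets, with 1 point per rat, Lewis in blue and Dahl S in red, and a bar at the mean of 3 rats. Points of the strains stand apart in 7 panels and overlap for Akr1a1 and Akr1e2, and the strain means differ by no more than 1.37-fold in any panel on the log2(signal + 16) scale.

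Akr1a1 encodes aldehyde reductase, which turns glucuronate into gulonate on the route by which rats make ascorbate. It was the member with the highest mean signal. Its normalized signals were 7099.8, 8063 and 8236 in Lewis rats 1, 2 and 3, and 7300.3, 7300.3 and 7323 in Dahl S rats 1, 2 and 3. The Dahl S rats lay inside the Lewis range, which was set by a low value in rat 1. The log2 difference was -0.09 (SE 0.06, 95% confidence interval -0.22 to 0.03, limma adjusted p = 0.32), so a decline of up to 0.22 was within the interval. This outcome depended on the scaling and on Lewis rat 1. The difference was -0.34 (limma adjusted p = 0.011) with arrays scaled to a common median, -0.33 (0.0092) with a common trimmed mean, -0.15 (0.024) without Lewis rat 1, and 0.10 (0.78) without normalization.

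Akr7a3 and Akr7a2 encode aflatoxin aldehyde reductases. The enzyme of Akr7a3 is known in rat liver for its induction by chemopreventive antioxidants, and that of Akr7a2 reduces succinic semialdehyde. Akr7a3 had normalized signals of 5503, 5697 and 5412 in Lewis rats 1, 2 and 3, and 4485, 4314 and 4792 in Dahl S rats 1, 2 and 3. All 3 Dahl S rats lay below all 3 Lewis rats. Means were 5538 ± 145 and 4530.3 ± 242 (SD, n = 3 each), a log2 difference of -0.29 (SE 0.05, limma adjusted p = 0.0033), or 1.22-fold lower in Dahl S. Akr7a2 had 3811, 3677 and 3126 in Lewis rats 1, 2 and 3, and 2746, 2780.0 and 2828 in Dahl S rats 1, 2 and 3. The ranges again did not overlap, with the Dahl S rats close together and Lewis rat 3 nearest to them. The log2 difference was -0.34 (SE 0.07, limma adjusted p = 0.0073), or 1.26-fold lower. Of the 5 calls, these were the pair that held without any 1 of the 6 arrays, with limma adjusted p between 0.0030 and 0.028 for Akr7a3 and between 9.8e-04 and 0.036 for Akr7a2. Without a variance trend their adjusted p were 0.049 and 0.048, and without normalization they gave -0.02 and -0.04.

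The genes of this pair lie near each other on chromosome 5 of the GRCr8 rat assembly. Their upstream sequences are shown because this pair was called with any 1 array left out. Each is the 250 bases before the RefSeq gene start, 5′ to 3′ on the strand of the gene, in GRCr8 at chr5:156876471-156876720, plus strand (Akr7a3) and chr5:156835339-156835588, plus strand (Akr7a2). Capitals mark matches on either strand to any of 4 short motifs. These were the core of the antioxidant response element TGACNNNGC, the motif GTTAAT, which is part of the site of hepatocyte nuclear factor 1, the TATA box TATAAA and the GC box GGGCGG.
Akr7a3: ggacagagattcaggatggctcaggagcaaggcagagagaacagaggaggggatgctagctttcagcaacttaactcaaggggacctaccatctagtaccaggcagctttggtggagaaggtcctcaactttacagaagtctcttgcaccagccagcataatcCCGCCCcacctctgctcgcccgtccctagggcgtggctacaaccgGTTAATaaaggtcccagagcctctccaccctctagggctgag
Akr7a2: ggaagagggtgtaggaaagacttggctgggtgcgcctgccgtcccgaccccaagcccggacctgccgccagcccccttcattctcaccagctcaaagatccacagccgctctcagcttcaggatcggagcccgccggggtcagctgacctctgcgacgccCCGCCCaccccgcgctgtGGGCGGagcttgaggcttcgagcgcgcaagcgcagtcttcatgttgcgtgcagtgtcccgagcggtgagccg
Akr7a3 had a GTTAAT match 42 bases before its start and a GC box on the opposite strand 87 bases before it. Akr7a2 had GC boxes 90 and 72 bases before its start, the farther one on the opposite strand. Neither window held the antioxidant response element core or the TATA box. Over 33465 promoter windows of the same length, 30.5% held the GC box, 6.45% GTTAAT, 12.9% the TATA box and 10.1% the antioxidant response element core. Among the 15 aldo-keto reductase windows, 5 held the GC box, 2 GTTAAT, 2 the TATA box and 1 the antioxidant response element core. No window of Akr1c1 or Akr1d1 was searched. A match is a run of letters and not a measured site. The 2 windows were identical at 127 of 250 aligned bases, which does not set this pair apart. Pairs of family windows ran from 100 to 224 identical bases, and Akr1b8 with Akr7a3, on different chromosomes, also had 127.

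The Akr1c genes and Akr1e2 form a cluster on chromosome 17 in GRCr8. RefSeq lists 17 protein-coding aldo-keto reductase genes beside Akr1b1, of which 3 (Akr1c2, Akr1c12 and Akr1c12l1) had no probe set in this annotation and were not analysed here. Akr1c13 and Akr1c12 had upstream windows identical at 224 of 250 aligned bases. These windows lie before the gene start and do not show what a probe set binds. Probe and transcript sequences were not compared, so a signal named for an Akr1c gene is uncertain where a probe set can bind a related gene.

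Akr1c1, listed in RefSeq also as Hsd17b5 and so as a hydroxysteroid dehydrogenase, was lower in Dahl S. Its normalized signals were 736, 729 and 809.7 in Lewis rats 1, 2 and 3, and 617, 578 and 611 in Dahl S rats 1, 2 and 3. The strains did not overlap. The means of 758 ± 44.6 and 602 ± 20.7 (SD, n = 3 each) gave a log2 difference of -0.32 (SE 0.08, limma adjusted p = 0.014), or 1.25-fold lower. The call was lost without Dahl S rat 2 (-0.30, limma adjusted p = 0.074) and without Dahl S rat 3 (-0.34, 0.061), and without normalization the difference was 0.10.

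Akr1c19 gave 337, 384 and 356 in Lewis rats 1, 2 and 3, and 309, 262 and 284 in Dahl S rats 1, 2 and 3. The highest Dahl S rat was below the lowest Lewis rat. The log2 difference of -0.32 (SE 0.10, limma adjusted p = 0.041) lay close to the threshold. Without any 1 array other than Lewis rat 1 the call was lost, with differences from -0.37 to -0.26 and limma adjusted p from 0.059 to 0.17. It was also lost with arrays scaled to a common median (0.086) or trimmed mean (0.056), without a filter (0.069) and without a variance trend (0.056), and the difference was 0.11 without normalization.

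Akr1c13 and Akr1e2 did not pass. Akr1c13 gave 2790.2, 2894 and 2850.1 in Lewis rats 1, 2 and 3, and 3099.7, 2961 and 2993 in Dahl S rats 1, 2 and 3. It was the tested member whose Dahl S rats all lay above the Lewis rats, with a log2 difference of 0.08 (SE 0.05, 95% confidence interval -0.03 to 0.20, limma adjusted p = 0.33). That direction turned with arrays scaled to a common median (-0.05) or trimmed mean (-0.04). Akr1e2, the anhydrofructose reductase gene, gave 811, 905 and 947 in Lewis rats 1, 2 and 3, and 877, 893 and 852 in Dahl S rats 1, 2 and 3. The Dahl S rats lay within the Lewis range, with a log2 difference of -0.02 (SE 0.08, 95% confidence interval -0.19 to 0.15, limma adjusted p = 0.90).

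The aldose reductase-like genes Akr1b8 and Akr1b10 neighbour Akr1b1 on chromosome 4 in GRCr8. The mouse counterpart of Akr1b8 is known as a gene induced by fibroblast growth factor, and human AKR1B10 reduces retinal and lipid aldehydes. Akr1b8 gave 113, 121 and 112 in Lewis rats 1, 2 and 3, and 76.7, 82.8 and 81.2 in Dahl S rats 1, 2 and 3. The strains were well apart, with means of 116 ± 4.73 and 80.3 ± 3.17 (SD, n = 3 each). The log2 difference was -0.45 (SE 0.11, limma adjusted p = 0.017), or 1.37-fold lower, the largest among the tested members with this normalization. With arrays scaled to a common median, Akr7a2 (-0.47) and Akr7a3 (-0.46) were further below 0 than Akr1b8 (-0.44), likewise with a common trimmed mean (-0.46, -0.45 and -0.43), and Akr7a2 was with a pseudocount of 64 (-0.33 against -0.32). Because this signal was dim, the size depended on the pseudocount, and it was -0.52 with a pseudocount of 1 and -0.32 with 64. The call was lost without Lewis rat 2 (limma adjusted p = 0.057) and without Dahl S rat 1 (0.079), 2 (0.050) or 3 (0.067), with differences from -0.47 to -0.42, and without normalization the difference was -0.07.

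The brighter Akr1b10 probe set gave 92.6, 119 and 109 in Lewis rats 1, 2 and 3, and 77.4, 85.4 and 76.7 in Dahl S rats 1, 2 and 3. The ranges did not overlap, yet the log2 difference of -0.35 (SE 0.13, 95% confidence interval -0.63 to -0.08) missed the threshold (limma adjusted p = 0.079). It passed without Lewis rat 1 (-0.45, limma adjusted p = 0.030) and, just under the threshold before rounding, without a variance trend (0.050). The dimmer probe set of the gene was below the filter and gave 69.2, 51.8 and 14.2 in Lewis rats 1, 2 and 3, and 32.2, 24.3 and 41.6 in Dahl S rats 1, 2 and 3, with Lewis rat 3 below every Dahl S rat.

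**Figure D2:**
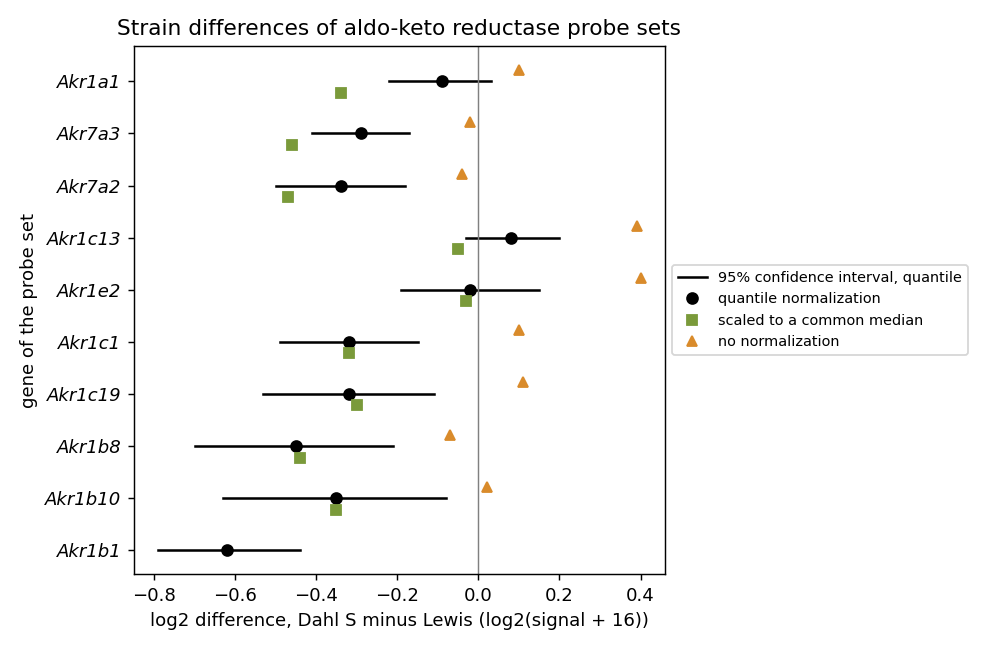
Log2 difference of Dahl S minus Lewis (horizontal axis, log2(signal + 16) scale) for the tested probe sets, with black points and lines for quantile normalization and its 95% confidence interval, green squares for arrays scaled to a common median and orange triangles for deposited values without normalization. The intervals of Akr7a3, Akr7a2, Akr1c1, Akr1c19, Akr1b8, Akr1b10 and Akr1b1 lie below 0, and the triangles sit to the right of the points; Akr1b1 is shown with quantile normalization alone.

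The number of members called lower depended on the arrays used. It was 3 without Lewis rat 2 or without Dahl S rat 1, 2 without Dahl S rat 2 or rat 3, 4 without Lewis rat 3 and 7 without Lewis rat 1, which added Akr1a1 and Akr1b10.

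Aldose reductase itself, left out of the members, served for comparison. The brighter Akr1b1 probe set gave 1693, 1953 and 2073 in Lewis rats 1, 2 and 3, and 1273, 1205 and 1226 in Dahl S rats 1, 2 and 3. It was 1.53-fold lower in Dahl S (log2 difference -0.62, SE 0.08, limma adjusted p = 2.1e-04), and its interval of -0.79 to -0.44 overlapped those of Akr7a2, Akr1c1, Akr1c19, Akr1b8 and Akr1b10. A second Akr1b1 probe set below the filter overlapped between strains (48.6 to 74.6 in Lewis, 34.8 to 59.2 in Dahl S).

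Members were also compared within each array by the log2 ratio of deposited signals to Akr1a1, a comparison added after the data were seen. A common brightness factor cancels in this ratio, but a brightness effect that varies with signal level does not. The difference of Akr1a1 was -0.09 with quantile normalization and -0.34 with a common median, where Akr1e2 gave -0.02 and -0.03. Unequal change of members and such an effect cannot be told apart by these ratios. The ratio of Akr1c13 was -1.60, -1.43 and -1.49 in Lewis rats 1, 2 and 3, and -1.17, -1.19 and -1.28 in Dahl S rats 1, 2 and 3. It was thus higher in every Dahl S rat, by 0.29 in the mean. The ratio of Akr1e2 was also higher in every Dahl S rat, by 0.31, and those of Akr7a3 and Akr1b1 were lower in every Dahl S rat, by -0.12 and -0.33. These 4 of 9 ratios did not overlap between strains. The 9 include Akr1b1, which is not a member, and all share Akr1a1 as denominator. The share of all probe sets whose ratio to Akr1a1 does not overlap was not computed, so this count has no background. Each had an exact two-sided permutation p of 0.1, the smallest that 3 against 3 allows, and 0.225 after adjustment over the 9. The other ratios overlapped, with differences from -0.17 for Akr1b8 to 0.03 for Akr1c19 and exact permutation p from 0.3 to 1.

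The other 9 probe sets lay below the filter and were not tested with the rest. They include the dimmer Akr1b10 probe set and those of Akr1c14, Akr1c15, Akr1c3, Akr1b7 and Akr1d1. Of these 9, 6 had Dahl S rats all above the Lewis rats, where 8.44% of the 15242 probe sets below the filter had that pattern. An Akr1d1 probe set near 0 on every array is among the 6. Chosen after their values were seen, those of Akr1c14 and Akr1c15 stood out. Akr1c14 encodes the rat hydroxysteroid dehydrogenase long studied in liver, and Akr1c15 lies next to it among the family members on chromosome 17.

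The first Akr1c14 probe set gave 0.749, 10.1 and 9.46 in Lewis rats 1, 2 and 3, and 31.7, 25.0 and 28.0 in Dahl S rats 1, 2 and 3. The second probe set of the gene gave 2.44, 16.6 and 2.61 in Lewis and 28.2, 24.5 and 32.9 in Dahl S, in the same order of rats. The third gave 2.74, 14.4 and 1.98 in Lewis and 18.5, 22.6 and 27.4 in Dahl S. All 3 probe sets of the gene were thus higher in every Dahl S rat, with Lewis rat 2 the highest Lewis rat in each.

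Akr1c15 gave 3.39, 10.4 and 3.62 in Lewis rats 1, 2 and 3, and 25.9, 21.6 and 19.6 in Dahl S rats 1, 2 and 3. In a fit of all probe sets without a filter, the log2 differences were 0.98 (SE 0.20, limma adjusted p = 0.022), 0.99 (SE 0.24, 0.041) and 0.83 (SE 0.22, 0.062) for the Akr1c14 probe sets in the order above, and 0.83 (SE 0.18, 0.025) for Akr1c15. Of probe sets below the filter, that fit called 1.14% higher and 0.715% lower in Dahl S, and of the 9 members there 3 higher and 0 lower (at an unadjusted p under 0.05, 5 and 1). Every Dahl S signal of this pair of genes was below the median of all probe sets, so the size depends on the pseudocount, at 1.92 to 2.31 with a pseudocount of 1 and 0.31 to 0.39 with 64. With a pseudocount of 1 the first and second Akr1c14 probe sets lost their call (limma adjusted p = 0.074 and 0.059), and the second was also lost without a variance trend (0.069). With replicate number as a block, the second Akr1c14 probe set (limma adjusted p = 0.069) and Akr1c15 (0.053) lost their call. The first Akr1c14 probe set then stayed just under the threshold (0.049). The differences were 0.92 to 1.09 without normalization, where all 4 passed. Without any 1 Dahl S rat none of the 4 passed (limma adjusted p 0.065 to 0.20), and without Lewis rat 1 or Lewis rat 3 the first Akr1c14 probe set was the one of the 4 that did (0.039 and 0.035).

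The upstream windows of Akr1c15 and Akr1c14 are shown because these genes held the 3 dim probe sets called without a filter. They lie in GRCr8 at chr17:71117958-71118207, minus strand (Akr1c15) and chr17:71083185-71083434, minus strand (Akr1c14), with capitals for the same 4 motifs.
Akr1c15: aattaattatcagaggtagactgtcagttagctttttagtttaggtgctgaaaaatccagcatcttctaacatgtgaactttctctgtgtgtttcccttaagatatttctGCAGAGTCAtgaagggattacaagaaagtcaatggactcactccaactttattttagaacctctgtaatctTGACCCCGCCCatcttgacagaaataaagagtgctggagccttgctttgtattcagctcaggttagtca
Akr1c14: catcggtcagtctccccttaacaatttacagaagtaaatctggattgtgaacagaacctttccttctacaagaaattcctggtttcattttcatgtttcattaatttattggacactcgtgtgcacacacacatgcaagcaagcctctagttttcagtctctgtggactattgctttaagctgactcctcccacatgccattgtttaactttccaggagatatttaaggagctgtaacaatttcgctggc
Among the 15 windows searched, that of Akr1c15 held matches to the antioxidant response element core, 140 bases before its start on the opposite strand and 69 bases before it on the strand of the gene. This core was held by 1 of the 15 windows and by 10.1% of the 33465 promoter windows. The nearer match overlaps a GC box on the opposite strand. Akr1c14 had no match to any of the 4 motifs in this window.

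The remaining dim members had little signal. Akr1d1, which encodes the steroid reductase of bile acid synthesis, gave 43.0, 55.0 and 36.4 in Lewis rats 1, 2 and 3, and 33.7, 6.26 and 23.1 in Dahl S rats 1, 2 and 3, with a difference of -0.78 without a filter (SE 0.29, limma adjusted p = 0.16). Its other probe set was near 0 on every array, at most 0.499. Akr1c3, a steroid dehydrogenase gene named Akr1c18 in older rat work and known for inactivating progesterone in the ovary, overlapped between strains (3.47 to 13.2 in Lewis, 3.07 to 10.5 in Dahl S). Akr1b7, known in the mouse as a protein of the vas deferens and adrenal cortex, gave 2.74, 2.51 and 8.14 in Lewis rats 1, 2 and 3, and 13.4, 9.17 and 8.79 in Dahl S rats 1, 2 and 3, with a difference of 0.38 without a filter (SE 0.16, limma adjusted p = 0.23). Adrenal cortex markers were low as well. Of 5 with a probe set, none was bright enough to test, and their summed signal was 75.6 to 128 in Lewis and 117 to 149.7 in Dahl S. Cyp11a1, which starts steroid synthesis, gave 23.3, 34.5 and 4.87 in Lewis rats 1, 2 and 3, and 60.2, 66.7 and 54.3 in Dahl S rats 1, 2 and 3. Like Akr1b7 it was higher in every Dahl S rat, but Lewis rat 3 was its lowest and the highest Lewis rat for Akr1b7. Cyp11b1, Cyp21a1, Nr5a1 and Star overlapped between strains. The mean of Cyp21a1 was lower in Dahl S (45.9 in Lewis and 35.9 in Dahl S), and those of Cyp11b1, Nr5a1 and Star were higher. The part of adrenal cortex in the Akr1b7 values was not tested.

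**Figure D3:**
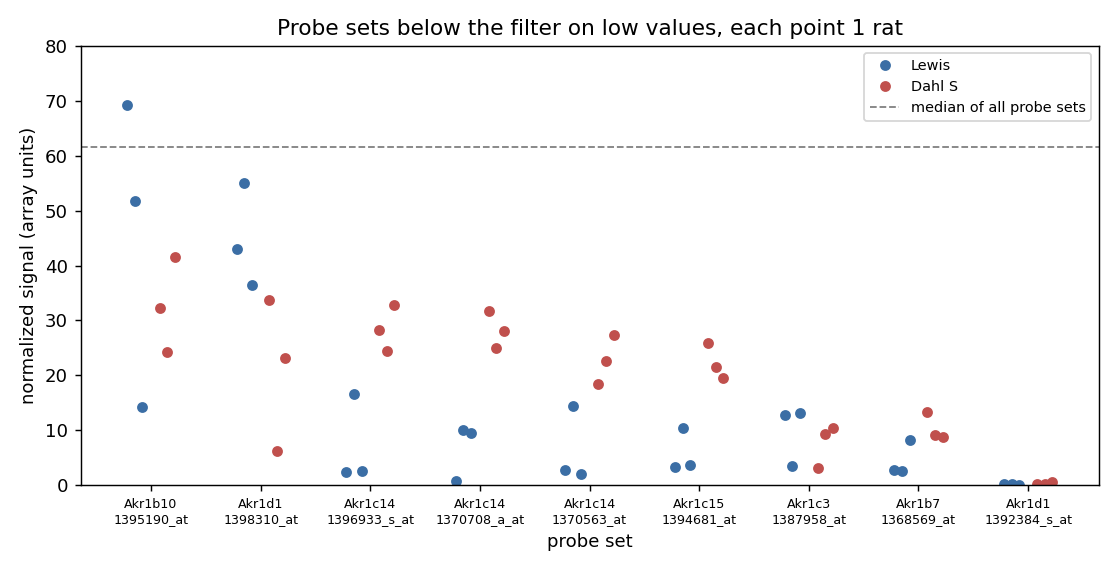
Normalized signal (array units, vertical axis from 0) of the 9 probe sets below the filter, with 1 point per rat, Lewis in blue and Dahl S in red, and a dashed line at 61.6, the median of all probe sets. The 3 Akr1c14 probe sets and that of Akr1c15 have every Dahl S rat above every Lewis rat, and 1 Lewis value of Akr1b10 lies above the line.

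Genes that work beside the aldo-keto reductases were counted in lists, with 1 probe set per gene. Over all 9540 genes tested, 7.59% were lower in Dahl S, 9.04% were higher and the median difference was 0.00. On the glucuronate and ascorbate route of Akr1a1, 2 of 10 tested genes were lower, 0 higher and 8 did not pass, with a median of -0.11 (limma; at an unadjusted p under 0.05, 3 lower and 0 higher). Dcxr, the xylulose reductase gene, fell by 0.41 on the log2 scale (SE 0.07, limma adjusted p = 0.0023) and Cryl1, a gulonate dehydrogenase gene, by 0.23 (SE 0.06, 0.019). The count was 1 without Lewis rat 2, without any 1 Dahl S rat or without a variance trend.

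Many, though not all, enzymes of the aldehyde dehydrogenase family oxidize aldehydes. Of 14 tested genes of this family, 4 were lower, 0 higher and 10 did not pass (unadjusted, 6 lower and 1 higher). Their median was -0.18. Aldh1a1, a retinal dehydrogenase gene, fell by 0.32 (SE 0.05, limma adjusted p = 0.0013), Aldh4a1 of proline breakdown by 0.24 (SE 0.06, 0.020), Aldh7a1 of lysine breakdown by 0.21 (SE 0.05, 0.019) and Aldh9a1 of carnitine synthesis by 0.27 (SE 0.08, 0.030). The count was 2 without Dahl S rat 1 or without a filter, and 1 without Dahl S rat 2 or 3 or without a variance trend.

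Of 12 other carbonyl reductase and alcohol dehydrogenase genes, 3 were lower, 0 higher and 9 did not pass, with a median of -0.05 (unadjusted, 4 lower and 1 higher). They were Hpgd, which inactivates prostaglandins (-0.50, SE 0.09, limma adjusted p = 0.0018), the prostaglandin reductase gene Ptgr1 (-0.36, SE 0.09, 0.021) and Dhrs1 (-0.36, SE 0.11, 0.046). The count was 1 without Lewis rat 3, Dahl S rat 2 or Dahl S rat 3.

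Among 14 genes that supply the cofactor NADPH, 3 were lower, 0 higher and 11 did not pass, with a median of -0.07 (unadjusted, 5 lower and 1 higher). The cytosolic malic enzyme gene Me1 fell by 0.81 (SE 0.12, limma adjusted p = 7.3e-04), the mitochondrial Me3 by 0.42 (SE 0.12, 0.029) and the transketolase gene Tkt by 0.29 (SE 0.07, 0.011). The count was 5 without Lewis rat 1 and 1 without Dahl S rat 2.

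Of 13 steroid dehydrogenase and reductase genes, 3 were lower, 0 higher and 10 did not pass, with a median of -0.07 (unadjusted, 4 lower and 0 higher), and 2 or 3 passed without any 1 array. Hsd17b1, which makes oestradiol, fell by 1.13 (SE 0.10, limma adjusted p = 1.4e-05) and Hsd17b11 by 0.24 (SE 0.07, 0.045). Hsd17b4, which fell by 0.70 (SE 0.07, limma adjusted p = 2.0e-05), is known for peroxisomal fatty acid oxidation more than for steroids. Of the potassium channel beta subunit genes, whose proteins share the aldo-keto reductase fold, Kcnab1 gave 91.5, 101 and 115 in Lewis rats 1, 2 and 3, and 53.2, 45.9 and 57.2 in Dahl S rats 1, 2 and 3. It passed the filter through its Lewis rats alone, so these values are given with no test, and Kcnab2 and Kcnab3 were below the filter. In the 5 lists tested no gene passed in the deposited values without normalization.

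**Figure D4:**
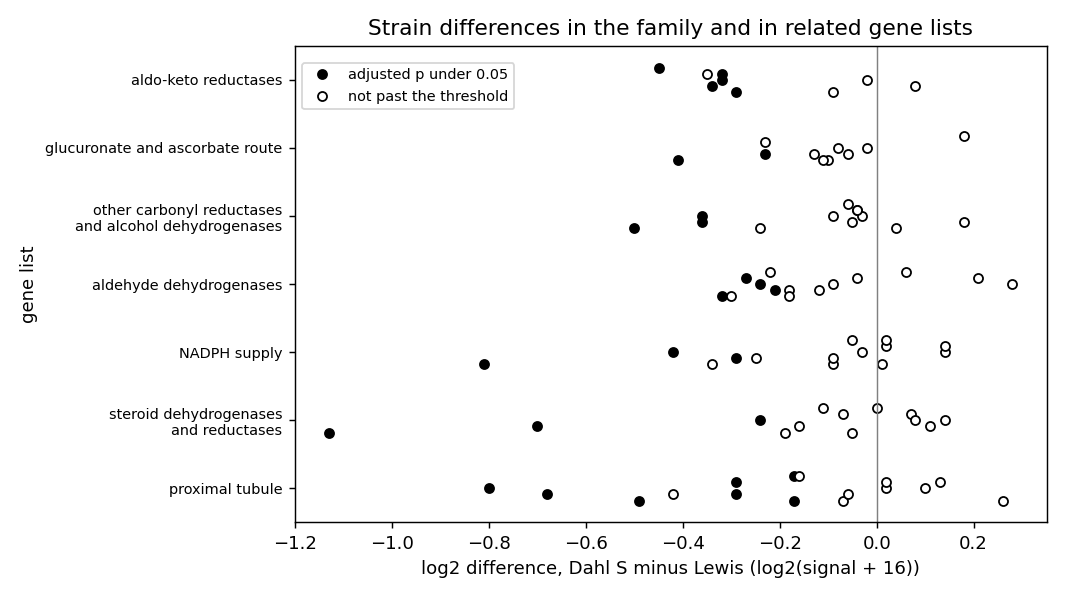
Log2 difference of Dahl S minus Lewis (horizontal axis, log2(signal + 16) scale) for the 9 tested aldo-keto reductases and for the tested genes of 5 related lists and of the proximal tubule markers, with quantile normalization and filled points for an adjusted p under 0.05. Every filled point lies below 0, and the open points lie on both sides.

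Markers of cell types moved between the strains as well. Of 16 proximal tubule markers, 7 were lower in Dahl S and 0 higher, with a median of -0.16 (unadjusted, 7 lower and 1 higher), and their summed signal was 76671 to 79650.0 in Lewis and 70102 to 70904 in Dahl S. Of 8 tested leukocyte markers, 7 were higher and 0 lower (unadjusted, 7 and 0), and the summed signal over 11 was 8028 to 8643 in Lewis and 9717 to 10156 in Dahl S. Collecting duct markers had the same median as those of the proximal tubule, -0.16, with 2 of 8 lower and 0 higher (unadjusted, 4 and 0). Of 6 tested thick ascending limb and distal tubule markers, 1 was lower and 1 higher (unadjusted, 2 and 1). Of 4 tested erythrocyte markers, 3 were higher and 0 lower (unadjusted, 3 and 0), and of 3 tested adipocyte markers 1 was higher and 1 lower (unadjusted, 1 and 1). The part of these cell types in the differences of the aldo-keto reductases was not tested. Of 9 hepatocyte markers with a probe set, 8 had means below the median of all probe sets, and the summed signal was 600.1 to 617 in Lewis and 482 to 508 in Dahl S. Most of that sum was Apoc3 (mean 452 in Lewis and 339 in Dahl S), while Cps1 went the other way (34.2 and 66.3).

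The 3 genes with profiles over the 6 arrays most like that of Akr1b8, which had the largest difference with quantile normalization but not with the other scalings, were Cyp4a1, Col6a6 and Alkbh7. Their Euclidean distances from it were 0.0659, 0.0679 and 0.0858 on the log2 scale after centring each gene, among 9540 tested genes, with provisional LOC and RGD symbols passed over, a restriction not in the naming rule. Cyp4a1 encodes a fatty acid hydroxylase and Col6a6 a collagen chain.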

How the data were processed

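Each of 3 Lewis and 3 Dahl S kidneys was measured on its own array. The deposited table holds linear signal intensities that the authors computed with GeneChip Operating Software version 1.4, per the labels' design text. The scaling target and any detection calls were not given in the sources used here. Array number limits the precision. The limma p-values set the strain difference against the spread between rats within a strain. Limma draws that spread toward a trend over all tested probe sets. Groups and replicate numbers came from the sample titles. Gene names came from the platform annotation, updated through gene identifiers to RefSeq (GRCr8), which matched all 18 members. Of the probe sets other than controls, 20826 had a single symbol, 436 several and 9780 none. Promoter sequences are RefSeq's.

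Intensities were converted to log2(signal + 16), quantile normalized, and compared with limma 3.58.1 in R 4.3.3 (lmFit, eBayes with a variance trend, two-sided, Benjamini-Hochberg over 15800 probe sets; 57 control probe sets left out). Steps were tested on simulated data without differences in array brightness, which cannot test the normalization. List genes were named if among the up to 4 past the threshold with the smallest adjusted p, each gene by its tested probe set with the highest mean. Members, lists and the pseudocount were chosen with earlier results of these data known. Alternatives were other scalings, pseudocounts of 1 and 64, other filters, no variance trend, a replicate block and leaving out each array.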

Additional observations from a re-analysis of the deposited data

How the results depend on the processing

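Without normalization the calls fell from 2565 (52.4% of them higher in Dahl S) to 713 (666 higher and 47 lower, 93.4% higher) over all tested probe sets and from 5 to 0 among the aldo-keto reductases, and the differences of Akr1a1, Akr1e2, Akr1c1, Akr1c19 and Akr1b10 turned to 0.10, 0.40, 0.10, 0.11 and 0.02. The difference of Akr1c13 turned to -0.05 with a common median and -0.04 with a common trimmed mean, and that of Akr1e2 to 0.03 without Lewis replicate 3 (from -0.08 to 0.03 over the arrays left out). Against Akr1a1 on the same array, Akr1c1 and Akr1c19 gave 0.01 and 0.03. Leaving out each array gave 1375 to 2675 calls over all probe sets and 2 to 7 among the members. Over the alternatives run for the 9 tested members, 103 of the member differences kept direction and side of the threshold, 19 lost and 5 gained a call in the same direction, and 8 turned, the comparison with Akr1a1 aside. Of those that turned, Akr1c1 and Akr1c19 without normalization also lost their call. The cause was not tested. Same-numbered rats did not deviate together (correlations of -0.05, -0.10 and 0.11 over the tested probe sets). No pairing by number was thus seen, though 3 rats per strain are too few to exclude one. With replicate number as a block, 2486 probe sets and 4 members passed, Akr1c19 being lost (adjusted p = 0.065). The dim signals of Akr1c14 and Akr1c15 are limited by unknown background.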
